A study of Mus musculus with 12 samples.

Results

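The expression of 9 complement genes was followed by RNA-seq in B16F10, a mouse melanoma line grown in culture, over 12 libraries. They are the 9 entries named C1s1, C1ra, C1rl, C4b, C3, Cfb, Serping1, Cd55 and Cd59a among the 55421 genes of each deposited table. The 4 groups of 3 libraries each are Bub1KO cells given 8 Gy of radiation, VC cells given 8 Gy, Bub1KO cells without treatment and VC cells without treatment. Bub1KO cells carry a disruption of Bub1, a mitotic checkpoint kinase, made with CRISPR-Cas9, and VC cells are their vector control. All 4 groups are the same line in culture medium with serum, so the samples are cultured cells and not tumours. The sources used here do not give the number of Bub1KO clones, the guide or the time from irradiation to RNA extraction, and no label says that the replicates are separate cultures. The p-values therefore measure the spread among these libraries alone, and that spread may be technical.

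Complement is a cascade of serum and membrane proteins that tags and perforates cells. In the classical pathway C1q binds a target and activates the proteases C1r and C1s, C1s cleaves C4 and C2, and the resulting enzyme cleaves C3. In the alternative pathway factor B, the product of Cfb, pairs with a C3 fragment. C1 inhibitor, encoded by Serping1, blocks C1r and C1s, while Cd55 speeds the decay of the C3-cleaving enzymes and Cd59 stops assembly of the membrane attack complex. The liver makes most of the complement in plasma, but many other cells, tumour cells among them, transcribe parts of it.

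The 9 genes were chosen by their normalized read counts in all 12 libraries, by genotype and by irradiation. Their levels and differences in these libraries are therefore a description of what the choice contains, and none of the calls below is independent evidence for the group. A value is a normalized read count, which is the number of reads in a gene divided by 1 size factor per library. A gene was tested where this value reached 10 in at least 3 of the 12 libraries, and a difference is called where the adjusted p from limma over all 14721 tested genes is under 0.05. Differences are on the scale of log2(value + 1), with their standard error (SE). Levels of different genes are compared only as FPKM, which scales the reads of a gene to its annotated exon length and to the reads in genes of the library.

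The libraries held between 19380726 and 33087366 reads in genes, and the mitochondrial share was 3.53 to 3.93% after 8 Gy and 2.31 to 2.93% without it. Bub1 RNA was lower in Bub1KO than in VC cells, by a log2 difference of -0.58 after 8 Gy (limma adjusted p = 0.00147) and -0.82 without irradiation (7.61e-05), and was not absent from any library. The 7 melanocyte lineage markers all passed the filter. Of the 12 leukocyte and macrophage markers 3 passed, Cd68, Lyz2 and Fcer1g. Of those that did not pass, Adgre1, Tyrobp, C1qa and C1qc had 0 reads in all 12 libraries. Summed over the libraries, Itgam had 2 reads, Ptprc 3, C1qb 5, Csf1r 18 and Cd14 41. The first untreated Bub1KO library stood apart from its replicates over 10274 abundant genes (root mean square log2 difference 0.424 and 0.428, against 0.13 to 0.223 for all other replicate pairs).

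Among the 9 genes only 5 passed the filter, namely the protease genes C1s1, C1ra and C1rl, the C1s substrate C4b and the membrane inhibitor Cd59a. C3, Cfb, Serping1 and Cd55 had at most 6 reads in any library. Each of the 5 tested genes had its highest mean in irradiated Bub1KO cells, followed by irradiated VC cells, untreated Bub1KO cells and untreated VC cells. For C1s1, C1ra and C1rl no 2 of the 4 groups overlapped. The share of all tested genes with this order, or with groups that do not overlap, was not counted. Neither trait, here or for the single genes below, is therefore shown to be particular to these genes. Fewer cells with a transcript and less of it per cell cannot be told apart in these bulk libraries.

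C1rl, C1ra and C1s1 lie side by side within 49.2 kb of chromosome 6. Their promoters are shown because the 3 genes were called together in both genotype and both irradiation comparisons, and that of C1rb because it is the near copy of C1ra. Each runs from 250 bases before to 50 bases after an annotated start, from RefSeq on GRCm38.p6, and capitals mark a match to a motif. The regions are chr6:124542310-124542609 on the minus strand for C1s1, chr6:124512371-124512670 on the plus strand for C1ra, chr6:124492863-124493162 on the plus strand for C1rl and chr6:124570180-124570479 on the plus strand for C1rb.
C1s1: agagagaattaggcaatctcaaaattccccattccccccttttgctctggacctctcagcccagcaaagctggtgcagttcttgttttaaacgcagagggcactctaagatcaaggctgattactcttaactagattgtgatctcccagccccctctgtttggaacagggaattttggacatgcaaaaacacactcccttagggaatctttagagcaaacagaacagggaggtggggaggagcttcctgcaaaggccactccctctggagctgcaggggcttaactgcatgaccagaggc
C1ra: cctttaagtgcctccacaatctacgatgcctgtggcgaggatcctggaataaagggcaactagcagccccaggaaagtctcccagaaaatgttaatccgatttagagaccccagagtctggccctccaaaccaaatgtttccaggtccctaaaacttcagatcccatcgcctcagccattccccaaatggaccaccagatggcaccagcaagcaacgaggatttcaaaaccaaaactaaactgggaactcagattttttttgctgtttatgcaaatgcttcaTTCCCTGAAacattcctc
C1rl: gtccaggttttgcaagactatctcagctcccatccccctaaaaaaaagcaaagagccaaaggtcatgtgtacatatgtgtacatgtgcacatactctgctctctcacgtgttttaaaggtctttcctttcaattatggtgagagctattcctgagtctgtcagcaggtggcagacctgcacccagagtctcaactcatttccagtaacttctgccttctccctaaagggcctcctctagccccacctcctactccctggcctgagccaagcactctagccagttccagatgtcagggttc
C1rb: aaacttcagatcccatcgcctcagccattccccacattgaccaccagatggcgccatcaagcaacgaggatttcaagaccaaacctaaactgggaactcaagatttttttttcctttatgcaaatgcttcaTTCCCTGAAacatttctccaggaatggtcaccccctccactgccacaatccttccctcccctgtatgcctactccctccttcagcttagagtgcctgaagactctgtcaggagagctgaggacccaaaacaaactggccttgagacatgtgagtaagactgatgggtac

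A set of 3 motifs was searched on both strands of these windows and of all 32851 promoters in the table. They are paired interferon regulatory factor half-sites (GAAANNGAA, held by 8.56% of all promoters), the STAT-binding GAS element (TTCNNNGAA, 8.3%) and an NF-kB site (GGGANNTTC, 3.94%). The C1ra window held 1 GAS match, TTCCCTGAA, at bases 283 to 291, which is 32 bases past the start. The C1rb window held the same 9 letters at bases 132 to 140, which is 119 bases before its start. The starts are those of RefSeq, and for C1ra and C1rb they lie inside the gene as GENCODE annotates it. Laid over each other on this match, the windows of C1ra and C1rb shared 149 bases, of which 135 (90.6%) were identical. The C1s1 and C1rl windows held no match, nor did the window of a second annotated C1s1 start, which is not shown. Of the other members 3 were in the promoter table: Cd59a held 1 paired half-site match, GAAAGGGAA, at bases 64 to 72, and C3 and Cd55 held none.

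C1s1 encodes C1s, the protease that cleaves C4 and C2 (ENSMUSG00000038521.17, chr6:124530345-124542359, minus strand, GRCm38). It had normalized read counts of 897, 888 and 981 in the 3 irradiated Bub1KO libraries and of 417, 372 and 328 in the irradiated VC libraries. Without irradiation it had 61.0, 48.5 and 50.5 in Bub1KO cells and 9.12, 7.74 and 17.6 in VC cells. The lowest Bub1KO library was above the highest VC library in both conditions, and the lowest irradiated library was above the highest untreated one in both genotypes. The means were 922 ± 51.5 in irradiated Bub1KO cells, 373 ± 44.6 in irradiated VC cells, 53.4 ± 6.68 in untreated Bub1KO cells and 11.5 ± 5.36 in untreated VC cells (SD, n = 3 each). The Bub1KO mean was 2.47 times the VC mean after 8 Gy and 4.64 times without irradiation. The irradiated mean was 17.3 times the untreated mean in Bub1KO cells and 32.4 times in VC cells. The log2 difference between Bub1KO and VC cells was 1.31 after 8 Gy and 2.20 without irradiation, and that of irradiation was 4.09 in Bub1KO and 4.98 in VC cells (SE 0.222 each). The untreated VC counts rest on 31 reads in all, and 14 of them are in replicate 3.

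C1ra encodes C1r, the protease that activates C1s (ENSMUSG00000055172.10, chr6:124512405-124523443, plus strand). It had 639, 638 and 662 normalized reads in irradiated Bub1KO cells and 358, 368 and 349 in irradiated VC cells. Unirradiated libraries had 212, 179 and 177 in Bub1KO cells and 87.0, 117 and 134 in VC cells. No groups overlapped. The means were 646 ± 13.5 in irradiated Bub1KO cells, 358 ± 9.52 in irradiated VC cells, 189.6 ± 19.8 in untreated Bub1KO cells and 113 ± 23.6 in untreated VC cells (SD, n = 3 each). The log2 difference between Bub1KO and VC cells was 0.85 after 8 Gy and 0.76 without irradiation, and that of irradiation was 1.77 in Bub1KO and 1.68 in VC cells (SE 0.136 each). The untreated genotype difference was no longer called when only its 6 libraries were fitted (limma adjusted p = 0.0519).

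C1rl encodes a C1r-like protease (ENSMUSG00000038527.9, chr6:124493113-124510643, plus strand). It had 1167, 1137 and 1037 normalized reads in irradiated Bub1KO cells and 521, 524 and 486 in irradiated VC cells. Unirradiated cells had 270.4, 329 and 285 in Bub1KO cells and 175, 164 and 176 in VC cells. Again every Bub1KO library was above every VC library of the same condition, and every irradiated library above every untreated one. The Bub1KO mean was 2.18 times the VC mean after 8 Gy and 1.72 times without it, and the irradiated mean was 3.78 times the untreated mean in Bub1KO cells and 2.97 times in VC cells. On the log2 scale the genotype difference was 1.12 after 8 Gy and 0.77 without irradiation, and the irradiation difference was 1.92 in Bub1KO and 1.56 in VC cells (SE 0.0934 each).

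The proportion of C1s1 to its partner C1ra differed between the groups by more than the spread of the replicates. Per length, C1s1 stood at 1.34, 1.33 and 1.41 times C1ra in the irradiated Bub1KO libraries and at 1.11, 0.964 and 0.897 times in the irradiated VC libraries. It stood at 0.274, 0.258 and 0.272 times C1ra in untreated Bub1KO cells and at 0.0998, 0.0628 and 0.126 times in untreated VC cells. The 4 groups did not overlap in this proportion. Against C1rl, C1s1 stood at 0.739, 0.752 and 0.911 in irradiated Bub1KO cells and at 0.771, 0.683 and 0.65 in irradiated VC cells, which overlapped. It stood at 0.217, 0.142 and 0.17 times C1rl in untreated Bub1KO cells and at 0.0501, 0.0454 and 0.0962 times in untreated VC cells, without overlap with each other or with the irradiated groups. In FPKM, C1s1 had 12.4 ± 0.631 and C1ra 9.16 ± 0.159 in irradiated Bub1KO cells, against 0.146 ± 0.0653 and 1.5 ± 0.293 in untreated VC cells. These proportions are ratios of the same values as above and were not tested separately. Those of untreated VC cells rest on 31 C1s1 reads. Of the 50-base stretches in exons, 48.0% of those in C1ra also occur in C1rb, and 21.8% of those in C1s1 in C1s2. The handling of reads that match more than 1 gene is not given in the sources used here. A proportion near or above 1 therefore does not settle which of C1s1 and C1ra had more RNA.

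**Figure D1:**
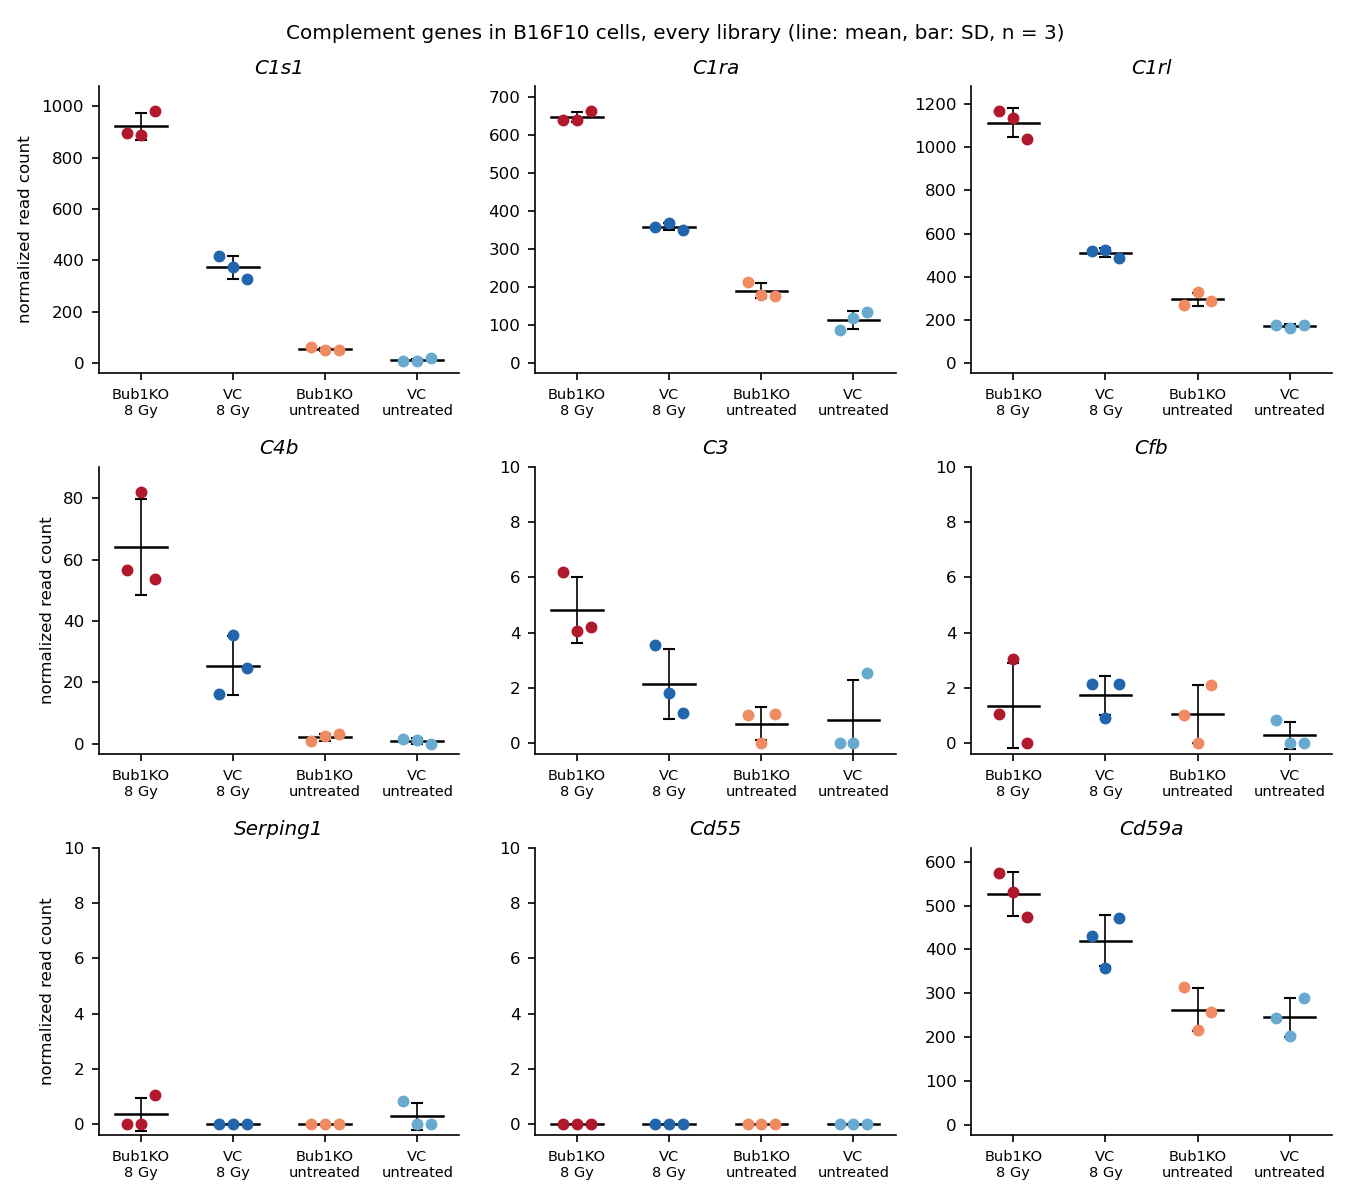
Normalized read counts of the 9 complement genes in every library (points), with the mean (line) and SD (bar) of each group of 3. The order of the groups is irradiated Bub1KO, irradiated VC, untreated Bub1KO and untreated VC. The 3 protease genes step down without overlap across the 4 groups, C4b is near 0 without irradiation, and C3, Cfb, Serping1 and Cd55 stay under 10 in every library.

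C4b encodes C4, which C1s cleaves (ENSMUSG00000073418.4, chr17:34728380-34743882, minus strand). It was near the detection limit without irradiation, and it passed the filter through its irradiated libraries alone. It had 56.8, 81.9 and 53.6 normalized reads in irradiated Bub1KO cells and 16.4, 35.4 and 24.7 in irradiated VC cells. Without irradiation it had 1.02, 2.47 and 3.16 in Bub1KO cells and 1.66, 1.29 and 0 in VC cells. The irradiated groups did not overlap with each other or with the untreated ones, and the untreated groups overlapped. These values stand on 187 reads in irradiated Bub1KO, 85 in irradiated VC, 7 in untreated Bub1KO and 3 in untreated VC cells. By the reads, the level was 28.9 times as high after 8 Gy in Bub1KO cells (95% interval 13.8 to 72.9) and 22.9 times in VC cells (7.56 to 113), intervals that cover counting error only. The log2 differences for irradiation were 4.38 in Bub1KO and 3.79 in VC cells (SE 0.435 each), and both were called. Over the alternatives they ranged from 3.25 to 4.86 in Bub1KO and from 2.31 to 4.56 in VC cells, lowest with a pseudocount of 5 and highest with DESeq2, and stayed called.

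The genotype difference of C4b depended on the method. After 8 Gy the log2 difference between Bub1KO and VC cells was 1.34 (SE 0.435), with a limma adjusted p of 0.0557, which missed the threshold. It passed with edgeR's quasi-likelihood test on the recovered reads (adjusted p = 0.00534), with DESeq2 (0.00225), with limma on the 6 irradiated libraries alone (0.00236) and with a pseudocount of 5 (0.00718). It also passed when untreated Bub1KO replicate 1 (0.0224) or untreated VC replicate 3 (0.029) was left out of the shared fit, although neither library belongs to the comparison. The authors' deposited table, which runs as VC over Bub1KO, gives a log2 fold change of -1.34 and an adjusted p of 0.00444. Without irradiation the log2 difference was 0.75 (limma adjusted p = 0.299), on 7 reads in Bub1KO and 3 in VC cells.

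C3, the protein on which all complement pathways meet (ENSMUSG00000024164.15, chr17:57203970-57228136, minus strand), had 26 reads over 12 libraries. These were 14 in irradiated Bub1KO, 8 in irradiated VC, 2 in untreated Bub1KO and 2 in untreated VC cells. The irradiated Bub1KO libraries had 6.19, 4.04 and 4.20 normalized reads and the irradiated VC libraries 3.56, 1.82 and 1.07, so these groups did not overlap. The counting interval of their ratio, 2.07 (0.81 to 5.69), nevertheless includes equality. In Bub1KO cells the irradiated level was 7.58 times the untreated one (1.74 to 68.7). C3 stayed below the filter and was not tested. With no filter on low values its irradiation difference in Bub1KO cells was 1.84 (limma adjusted p = 0.0169 over 30265 genes), and its other differences were not called.

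Cfb, the alternative pathway's protease (ENSMUSG00000090231.10, chr17:34856374-34862518, minus strand), had 14 reads in all. Of them 4 were in irradiated Bub1KO, 6 in irradiated VC, 3 in untreated Bub1KO and 1 in untreated VC cells. Serping1 (ENSMUSG00000023224.12, chr2:84765387-84775444, minus strand) had 2 reads, 1 in irradiated Bub1KO replicate 3 and 1 in untreated VC replicate 1. Cd55 (ENSMUSG00000026399.12, chr1:130439027-130462744, minus strand) had 0 reads in all 12 libraries, which allows for up to 3 reads among the 298294867 reads in genes. No difference between groups was detectable at this depth for these 3 genes.

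Cd59a encodes the inhibitor of the membrane attack complex (ENSMUSG00000032679.12, chr2:104095801-104115354, plus strand). It was the one inhibitor among the 9 genes that was read in every library. It had 574, 532 and 475 normalized reads in irradiated Bub1KO cells and 431, 357 and 471 in irradiated VC cells. Without irradiation it had 314, 216 and 258 in Bub1KO cells and 243, 203 and 290 in VC cells, and these 2 groups overlapped. The lowest irradiated Bub1KO library, at 475, was just above the highest irradiated VC library, at 471. The log2 difference for irradiation was 1.01 in Bub1KO and 0.78 in VC cells (SE 0.159 each), and both were called.

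For the genotype, the log2 difference of Cd59a was 0.33 after 8 Gy (limma adjusted p = 0.176, or 0.0315 with the 6 irradiated libraries alone) and 0.10 without irradiation (0.753). The untreated difference turned to -0.040 without Bub1KO replicate 1 and to -0.032 without VC replicate 2. In untreated VC cells Cd59a, at 5.38 FPKM, had the highest level per length of the 9 genes, above C1rl at 2.27 FPKM. In irradiated Bub1KO cells C1rl had 15.6 FPKM, C1s1 12.4 and Cd59a 12.3. C1s1 and Cd59a there differed by less than their spread.

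Put side by side, 3 of the 5 tested members, C1s1, C1ra and C1rl, were called higher in Bub1KO than in VC cells after 8 Gy, where 7.37% of all tested genes were called higher and 6.93% lower. The same 3 were called higher without irradiation, where 6.64% of all tested genes were called higher and 5.38% lower. All 5 were called higher after 8 Gy in Bub1KO cells, where 25.4% of all tested genes were called higher and 23.9% lower, and in VC cells, where these shares were 27.6% and 25.8%. No member was called lower in any comparison. The choice of the members used these contrasts, so nothing is read from the counts. The median log2 difference of the 5 was 1.12 after 8 Gy and 0.76 without it for the genotype, and 1.92 in Bub1KO and 1.68 in VC cells for irradiation. Over all tested genes the median was -0.0055 after 8 Gy and -0.0084 without it for the genotype, and 0.028 in Bub1KO and 0.017 in VC cells for irradiation. The comparisons share libraries with each other, so their counts are not separate results.

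**Figure D2:**
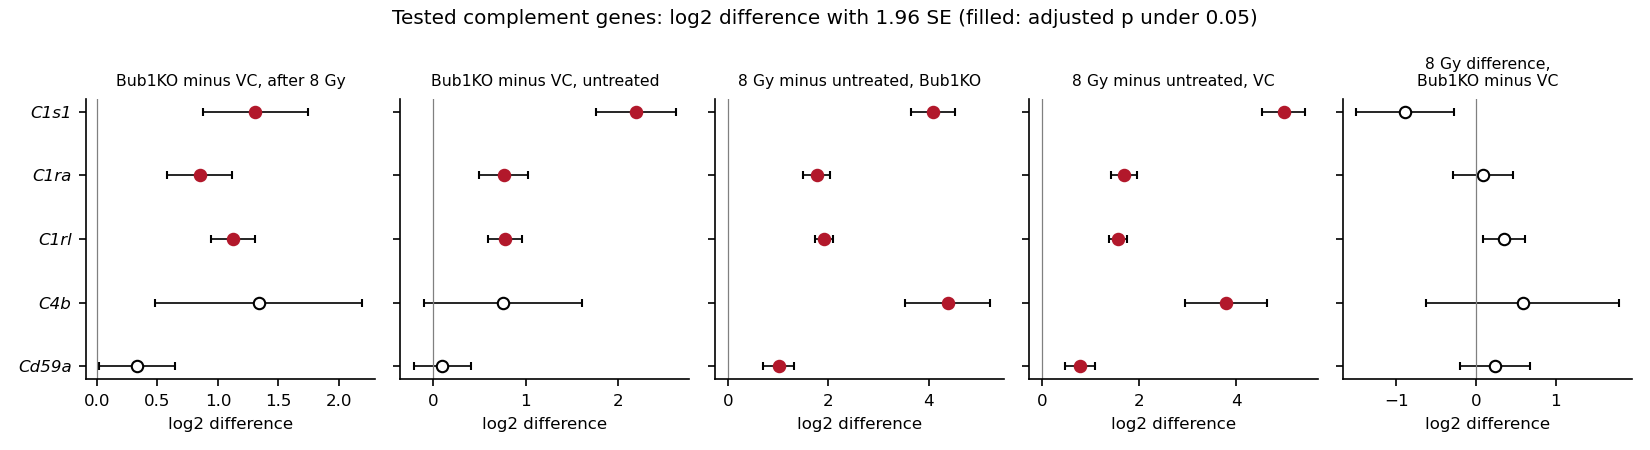
Log2 difference of the 5 tested members in each comparison (points), with bars to 1.96 SE on each side, and filled points for an adjusted p under 0.05. The 3 protease genes were called in 4 comparisons, C4b and Cd59a in those for irradiation, and none in the last panel, which shows the difference between the 2 irradiation effects.

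Whether irradiation changed these genes by different amounts in the 2 genotypes was asked with an interaction term, the Bub1KO minus VC difference after 8 Gy minus the same difference without irradiation. Of all tested genes 0.55% were called, and of the 5 members 0 were called by limma, by edgeR or by DESeq2. At an unadjusted p under 0.05 the counts were 1784 of all tested genes and, among the members, C1s1 and C1rl. For C1s1 the term was -0.89 (SE 0.314, unadjusted p = 0.014, limma adjusted p = 0.259). Without untreated VC replicate 3, the library with 14 of the 31 untreated VC reads, it was -1.21 and passed (adjusted p = 0.0229). For C1rl it was 0.35 (SE 0.132, unadjusted p = 0.0191, adjusted p = 0.288). For C1ra, C4b and Cd59a it was 0.09, 0.58 and 0.24, with adjusted p-values of 0.736 or more.

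Near copies limit what these counts can say, because the sources used here do not say what was done with reads that match more than 1 gene. Of the 50-base stretches in C1ra exons 48.0% also occur in C1rb, and of those in C4b 34.6% also occur in C4a. The shares were 21.8% for C1s1 in C1s2, 8.0% for Cd55 in Cd55b and 3.87% for Cd59a in Cd59b. C1rb averaged 2.09 normalized reads in irradiated Bub1KO cells, 2.09 in irradiated VC cells and 0 in both untreated groups. C1s2 averaged at most 1.99 in any group. C4a, by contrast, averaged 35.8 normalized reads in irradiated Bub1KO cells, 24.0 in irradiated VC cells, 21 in untreated Bub1KO cells and 21.4 in untreated VC cells. Per length, C4a had 0.135 FPKM in untreated Bub1KO cells and 0.137 FPKM in untreated VC cells, while C4b had 0.0155 FPKM in untreated Bub1KO cells and 0.00693 FPKM in untreated VC cells. The antisense genes Gm16567, over C1s1, and Gm44096, over the start of C1rl, averaged at most 0.660 normalized reads in any group.

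A wider list of 52 further complement genes was read sparsely. Of these 10 passed the filter, 25 had at least 1 read but missed it, and 17 had 0 reads in every library. C1qa and C1qc, chains of the C1q that carries C1r and C1s, had 0 reads, and C1qb had 5 reads in all. The list was written with earlier results of these data known. Of the 10 tested genes 3 were called higher and 1 lower in Bub1KO than in VC cells after 8 Gy, beside 7.37% and 6.93% of all tested genes. Without irradiation 2 were called higher and 0 lower, beside 6.64% and 5.38%. For irradiation 6 were called higher and 2 lower in Bub1KO cells, beside 25.4% and 23.9%, and 5 higher and 2 lower in VC cells, beside 27.6% and 25.8%. The median log2 difference of the 10 was 0.03 after 8 Gy and 0.09 without irradiation for the genotype, and 0.69 in Bub1KO and 0.56 in VC cells for irradiation. None was called for the interaction. Without untreated Bub1KO replicate 1, Masp1 (limma adjusted p = 0.00349) and Clu (0.031) were called for it, and Masp1 for the untreated genotype difference (0.0402).

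C2, the partner that C1s cleaves together with C4, rose in all 4 comparisons. It had 412, 470.2 and 393 normalized reads in irradiated Bub1KO cells and 251, 233 and 189 in irradiated VC cells. Without irradiation it had 253, 206 and 264 in Bub1KO cells and 108, 119 and 118 in VC cells. Untreated Bub1KO and irradiated VC libraries overlapped, while both genotype pairs and both irradiation pairs did not. The log2 difference for the genotype was 0.92 after 8 Gy (limma adjusted p = 0.000573) and 1.06 without irradiation (0.000142). For irradiation it was 0.82 in Bub1KO cells (0.000169) and 0.95 in VC cells (4.62e-05).

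Clu, which encodes clusterin, a secreted chaperone that binds the membrane attack complex, also rose in all 4. It had 722, 772 and 650.2 normalized reads in irradiated Bub1KO cells and 204, 212 and 212 in irradiated VC cells. Without irradiation it had 90.5, 133 and 133 in Bub1KO cells and 17.4, 24.5 and 26.5 in VC cells. No groups overlapped. The Bub1KO mean was 3.41 times the VC mean after 8 Gy and 5.21 times without it, with log2 differences of 1.76 (limma adjusted p = 3.23e-05) and 2.33 (1.67e-06). Its irradiation differences were 2.60 in Bub1KO and 3.17 in VC cells, with adjusted p-values of 7.32e-08 and 1.44e-08.

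C8g, a chain of the membrane attack component C8, rose after 8 Gy by 1.37 in Bub1KO and 1.06 in VC cells on the log2 scale (limma adjusted p = 3.41e-05 and 0.000289). It averaged 113 ± 13.8 normalized reads in irradiated Bub1KO and 66.7 ± 15.1 in irradiated VC cells, a called difference of 0.77 (adjusted p = 0.0144). That call was lost (adjusted p of at most 0.0807) without irradiated Bub1KO replicate 2, irradiated VC replicate 2 or irradiated VC replicate 3. Masp1, the lectin pathway protease that resembles C1r and C1s, averaged 7601 ± 490.2 normalized reads in irradiated Bub1KO and 9356 ± 297 in irradiated VC cells. It averaged 4955 ± 664 in untreated Bub1KO and 4568 ± 316 in untreated VC cells. It rose after 8 Gy by 0.62 in Bub1KO cells and 1.04 in VC cells on the log2 scale (adjusted p = 9.18e-05 and 1.05e-06). Its genotype difference after 8 Gy, -0.30 (adjusted p = 0.0464), was called under 7 of 20 alternatives.

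Itgb2, the shared chain of the leukocyte complement receptors, rose after 8 Gy by 2.31 in Bub1KO and 2.71 in VC cells on the log2 scale (limma adjusted p = 0.00174 and 0.000474). It averaged 18.6 normalized reads in irradiated Bub1KO cells, 19.3 in irradiated VC cells, 2.74 in untreated Bub1KO cells and 2.24 in untreated VC cells, so it passed the filter through the irradiated libraries. Over the alternatives its irradiation difference ranged from 1.51 to 2.85 in Bub1KO and from 1.76 to 3.14 in VC cells and stayed called. C4a rose in Bub1KO cells by 0.75 (limma adjusted p = 0.0163), a call that was lost without untreated Bub1KO replicate 1 or with no filter (adjusted p of at most 0.0588), and its VC difference was 0.17 (adjusted p = 0.563). C1qbp, a mitochondrial protein that binds C1q, fell by 0.61 in Bub1KO and by 0.59 in VC cells after 8 Gy. Cr1l, which in mice encodes the membrane regulator Crry, fell by 0.42 in Bub1KO and by 0.27 in VC cells. The VC call of Cr1l was lost (adjusted p of at most 0.102) without any 1 of the irradiated VC libraries or without untreated VC replicate 2 or 3. Cd46 and properdin, encoded by Cfp, were called in no comparison.

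**Figure D3:**
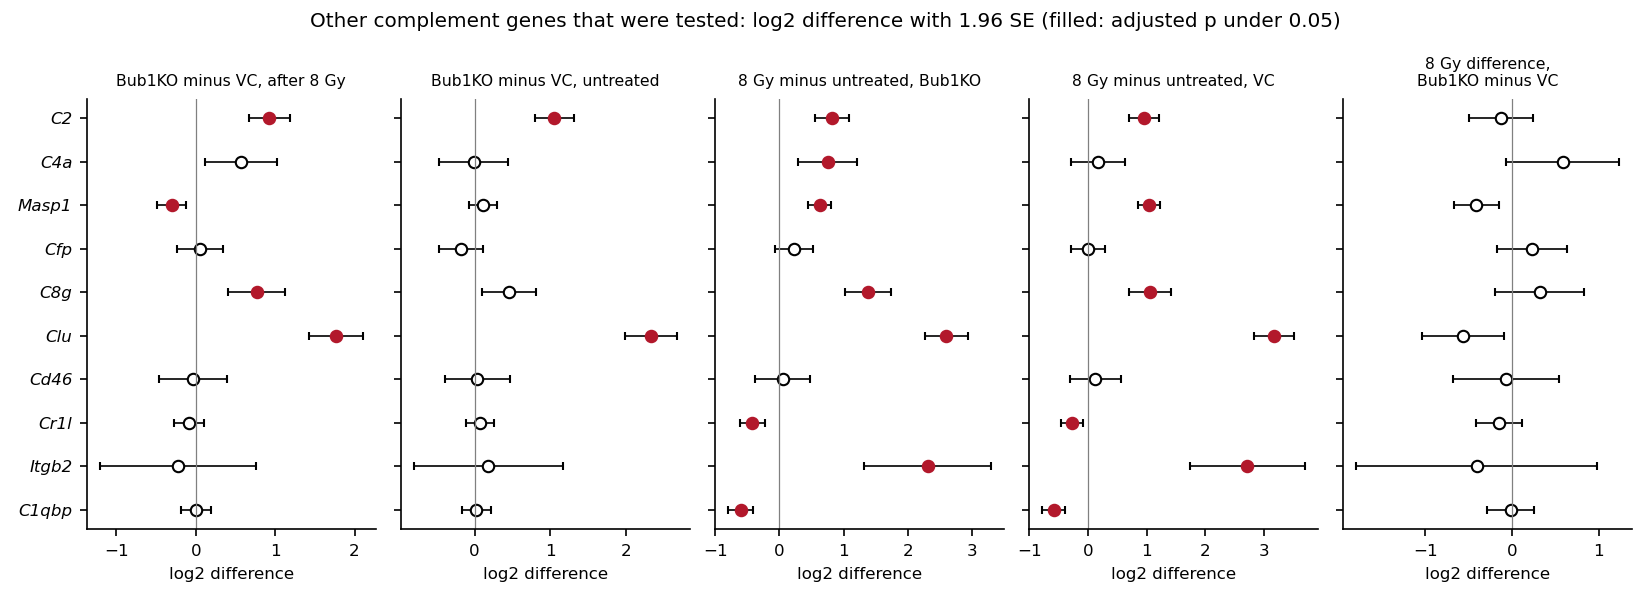
Log2 difference of the 10 other complement genes that passed the filter (points), with bars to 1.96 SE on each side, and filled points for an adjusted p under 0.05. C2 and Clu lie above 0 in the 4 comparisons of genotype and irradiation, and Cr1l and C1qbp lie below 0 in the 2 irradiation panels.

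The summed leukocyte, fibroblast and melanocyte markers differed between the groups, in orders that were not that of the complement members. The summed normalized reads of the 12 leukocyte and macrophage markers were 299 to 302 in irradiated Bub1KO cells, 199.7 to 218 in irradiated VC cells, 46.1 to 54.8 in untreated Bub1KO cells and 55.4 to 59.3 in untreated VC cells. Cd68, which encodes a lysosomal protein, averaged 216 in irradiated Bub1KO cells, 113 in irradiated VC cells, 19.4 in untreated Bub1KO cells and 24.1 in untreated VC cells. Lyz2 averaged 62.3 in irradiated Bub1KO cells, 68.8 in irradiated VC cells, 9.97 in untreated Bub1KO cells and 4.78 in untreated VC cells. Fcer1g, the other marker that passed, averaged 18.8 in irradiated Bub1KO cells, 16.5 in irradiated VC cells, 19.1 in untreated Bub1KO cells and 21.8 in untreated VC cells. Cd68 and Lyz2 were thus highest in irradiated cells and Fcer1g was not. Of the 12 markers 4 had 0 reads in all 12 libraries. The 6 fibroblast markers summed to 228 to 256 in irradiated Bub1KO cells, 329 to 337 in irradiated VC cells, 175 to 199.9 in untreated Bub1KO cells and 179 to 239 in untreated VC cells. That sum joins opposite changes, since Col1a1 and Col1a2 had higher means after 8 Gy in both genotypes and Pdgfra lower ones. Col1a2 averaged 172, 263, 92.8 and 80.4 in these groups, in the same order, and Pdgfra 38.6, 42.1, 84.8 and 115.7. The 7 melanocyte lineage markers summed to 555547 to 578932 in irradiated Bub1KO cells, 430616 to 445913 in irradiated VC cells, 542890 to 552089 in untreated Bub1KO cells and 386911 to 404327 in untreated VC cells. Their sum was thus higher in Bub1KO cells in both conditions, without overlap. Without irradiation each of the 7 means was higher in Bub1KO cells. After 8 Gy those of Pmel, Tyr, Dct and Mlana were higher and those of Tyrp1, Sox10 and Mitf lower. Dct, for example, averaged 269057 in irradiated Bub1KO and 169287 in irradiated VC cells. Tyrp1 averaged 97145 and 104998 in these 2 groups, and Mitf 11720 and 12637. Of 5 hepatocyte markers 1 passed the filter, Ahsg, and Alb had 0 reads. Ahsg averaged 13.8 in irradiated Bub1KO cells, 9.6 in irradiated VC cells, 4.2 in untreated Bub1KO cells and 3.6 in untreated VC cells. That is the order of the complement members. The hepatocyte sums were 12.4 to 22.1, 9.24 to 16.1, 2.03 to 9.05 and 2.58 to 5.04 in the same groups. Of 4 endothelial markers 0 passed the filter. The part of these marker changes, and of the mitochondrial share, in the complement results was not tested.

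The genes around the protease genes were called in both directions after irradiation. Those within 250 kb were looked at after their values had been seen, and 10 of 30 annotated genes that are not complement genes were tested. Of these Lpcat3 and Ptpn6 were called higher in Bub1KO than in VC cells, by 0.34 and 0.40 on the log2 scale after 8 Gy and by 0.26 and 0.47 without irradiation, and none was called lower. Of all tested genes 7.37% were called higher for the genotype after 8 Gy and 6.64% without irradiation. For irradiation 5 of the 10 were called higher and 2 lower in Bub1KO cells, where 25.4% and 23.9% of all tested genes were, and 3 higher and 4 lower in VC cells, where 27.6% and 25.8% were. Eno2, a neuronal enolase, had the largest irradiation difference of the 10, at 3.33 in Bub1KO and 2.78 in VC cells. Pex5 and Clstn3, on the side of C1rl, had no called genotype difference. Around C4b 20 of 51 such genes were tested, of which 1 was called higher and 2 lower in Bub1KO than in VC cells after 8 Gy, beside 7.37% and 6.93% of all tested genes. For irradiation 5 of these 20 were called higher and 3 lower in Bub1KO cells, beside 25.4% and 23.9%. In VC cells 8 were called higher and 1 lower, beside 27.6% and 25.8%.

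**Figure D4:**
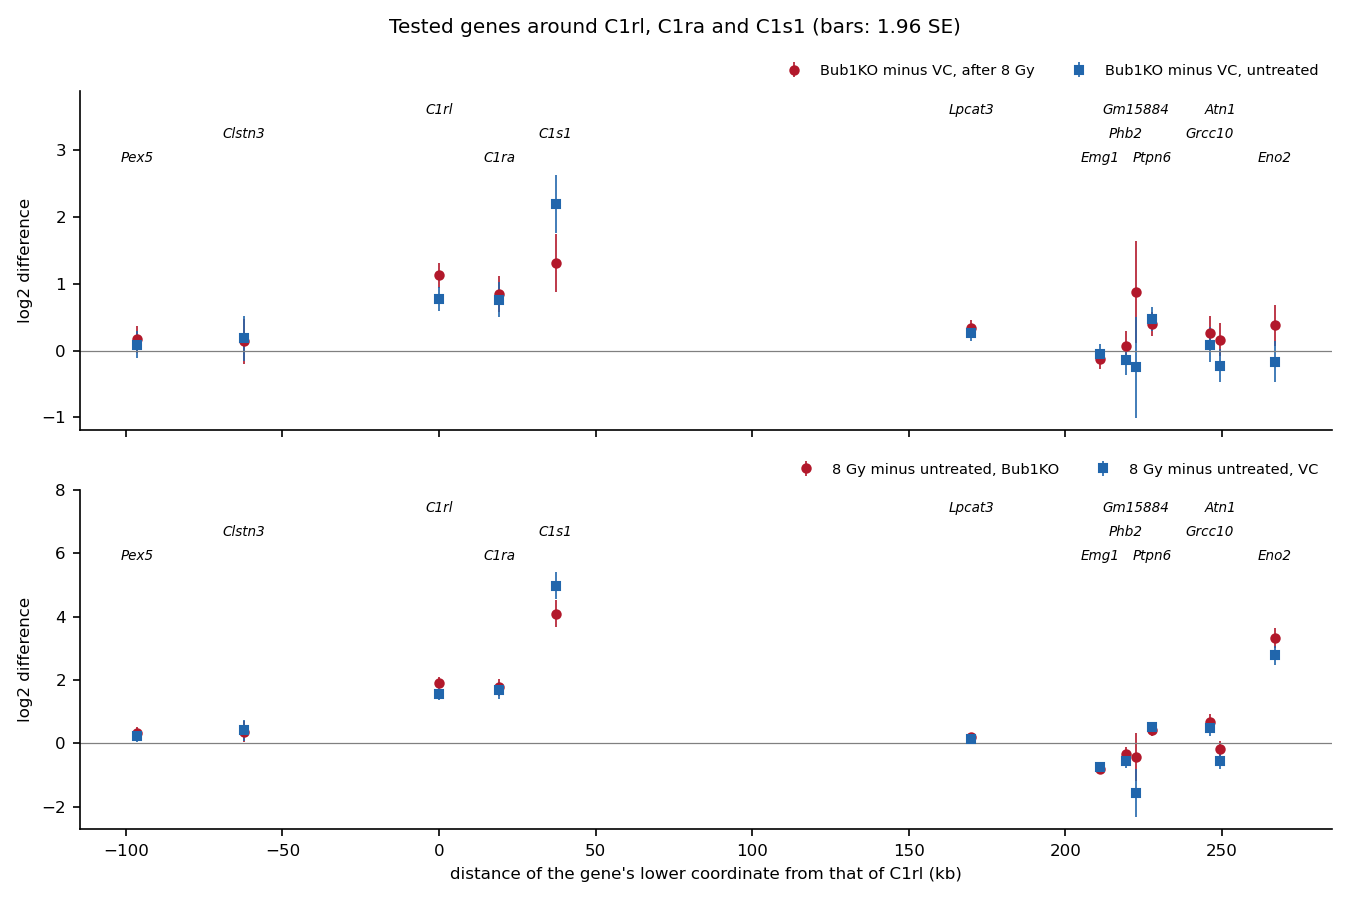
Log2 differences (points, bars to 1.96 SE on each side) of the tested genes around C1rl, C1ra and C1s1, by the distance of each gene's lower coordinate from that of C1rl in kb. The upper panel shows Bub1KO minus VC and the lower panel 8 Gy minus untreated. The 3 protease genes lie above the other genes in the upper panel apart from an imprecise value of Gm15884, and C1s1 and Eno2 are the highest in the lower panel.

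Across the 12 libraries the 5 tested members followed each other, with Pearson's r of log2(value + 1) between 0.858 (C4b and Cd59a) and 0.985 (C1s1 and C1ra). The 12 points share the 4 groups, so a high r is a description of the group order and carries no test. The tested genes outside the complement lists with the highest r were Ap3m2 for C1s1 (0.996), 4930402H24Rik for C1ra (0.993), Ifi27 for C1rl (0.994), Tgm2 for C4b (0.987) and Tmsb4x for Cd59a (0.985).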

How the data were processed

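RNA-seq of 12 B16F10 libraries was used as deposited. The submitters' processing notes name the build GRCm38.p6 (mm10) and, without versions, STAR and HTSeq beside Trim Galore, cutadapt and SAMtools. The strand setting of the counting is not given in the sources used here. In the 2 deposited tables the sample columns hold a signal, read counts that the authors divided by 1 size factor per library. The deposited tables also hold the authors' log2 fold changes with a test score and p-values, of VC over Bub1KO. Whole reads were recovered from the smallest step of a column, and 100.0% of the values came out whole within 0.01 of a read. Size factors ranged from 0.775 to 1.41, and both tables share 1 normalization. No value column was without a sample.

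One limma-trend fit (limma 3.58.1, R 4.3.3) on log2(value + 1) over all 12 libraries gave every comparison, with Benjamini-Hochberg adjustment over 14721 genes. The scale understates changes of low genes. Alternatives were edgeR 4.0.16 and DESeq2 1.42.0 on the recovered reads, TMM scaling, pseudocounts of 0.5 and 5, no filter, the 6 libraries compared, a replicate block and leaving out each library. The fit was also run on simulated reads with the same spread for every gene and no outlying library. That run does not check the calls in these libraries. The members and lists were chosen with earlier results of these data known. Named genes are the 9 members, Bub1, the wider complement genes that passed the filter and were called, and the tested genes of highest correlation with each member (the first of 3 is printed). The untested genes of the wider list with a value in the text and the genes around C1s1 and C4b were named after their values were seen. Positions come from GENCODE M21 on GRCm38, which matched 55154 of the 55421 identifiers. Promoters come from RefSeq. Intervals cover counting error only.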

Additional observations from a re-analysis of the deposited data

How the results depend on the processing

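Of the alternative values of single members, 483 kept their direction and their side of the threshold, 8 passed newly, 1 no longer passed and 3 changed sign. C1s1 and C1rl were called in all 4 comparisons of genotype and irradiation under every alternative run, and C4b and Cd59a in both irradiation comparisons. The changes of sign were Cd59a in the untreated genotype comparison (-0.040 without Bub1KO replicate 1 and -0.032 without VC replicate 2, in a range of -0.040 to 0.23 over the libraries left out) and C1ra in the interaction (-0.046 without untreated VC replicate 3, in a range of -0.046 to 0.26), none of them called.

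With only the 6 libraries compared, the genotype counts were 4512 genes after 8 Gy, against 2105, and 591 without irradiation, against 1769. The members called after 8 Gy were then 5, against 3, while without irradiation C1ra was no longer called (limma adjusted p = 0.0519). The interaction gave 283 genes with DESeq2 and 47 with the replicate block, against 81. Libraries with the same replicate number did not clearly deviate together (r of same-numbered deviations -0.576 to 0.14). With 3 libraries in a group, 1 of them standing apart, this cannot exclude a pairing. The block changed no call of a member.

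Leaving out 1 library gave 899 to 4131 genes and 3 to 4 members for the genotype after 8 Gy, 1088 to 3624 genes and 3 members without irradiation, 6141 to 7567 genes in Bub1KO and 6733 to 9025 in VC cells for irradiation with 5 members each, and 33 to 1447 genes and 0 to 1 members for the interaction. Without untreated Bub1KO replicate 1, the library that stood apart, the genotype counts were 4131 after 8 Gy and 3624 without irradiation and the interaction count was 1447. Without irradiated Bub1KO replicate 1 or 2 or any 1 irradiated VC library the count after 8 Gy was 899 to 1315, and without untreated VC replicate 1 or 2 the untreated count was 1088 and 1109. The interaction count was 33 to 86 without any 1 of the other libraries. The cause was not tested. Depth limits C3, Cfb, Serping1, Cd55 and untreated C4b.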
